A study of Homo sapiens with 3 samples.

Results

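Box C/D small nucleolar RNAs (snoRNAs) were examined in peaks of RNA crosslinked to RPL22 and to its paralog RPL22L1, both of which are proteins of the large ribosomal subunit. The genes were chosen by their peaks. An annotated snoRNA gene of GRCh38 RefSeq whose symbol starts with SNORD was taken when a peak summit lay within its bounds in either list. Of 357 SNORD genes, 90 met this rule. RNA bound to HaloTag fusions was captured in HCT116, a cell line from a human colorectal carcinoma, by GoldCLIP. In this crosslinking method the HaloTag forms a covalent bond with the beads, so that other RNA can be washed away under denaturing conditions. The series has 3 samples with 1 library each, namely cells expressing HaloTag alone, RPL22-HaloTag or RPL22L1-HaloTag, and no treatment was named for any of them. The promoter of the fusions, and whether each line was a clone or a pool, are not given in the sources used here. Peaks of the RPL22-HaloTag library (RPL22 peak list) and of the RPL22L1-HaloTag library (RPL22L1 peak list) were used. Values from cells with HaloTag alone are not used here, so background capture in such cells stands beside none of the values. Peaks give no measure of cell type, and the labelled cell line was not checked against markers.

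Box C/D snoRNAs are short nucleolar RNAs named after box C near the 5′ end and box D near the 3′ end. With NOP56, NOP58, SNU13 and the methyltransferase fibrillarin they form particles in which base pairing upstream of box D, or of its internal copy D′, selects the nucleotide of ribosomal RNA or U6 snRNA to be 2′-O-methylated. A few, among them U3, U8 and U14, act in the cleavage and folding of pre-ribosomal RNA. In human cells most are cut out of introns of host genes, many of which encode ribosomal proteins, nucleolar proteins or translation factors.

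There were 154000 peaks for RPL22 and 254413 for RPL22L1, and the number of reads behind either is unknown. Each peak carries a deposited score, which is the authors' value and was used to rank peaks within a list only. The lowest score was 13 in both lists, and the median was 33 in the RPL22 peak list and 124 in the RPL22L1 peak list. Flat peaks, defined as peaks of 30 bases with the summit offset at 15, made up 64.9% and 77.9% of the lists. With 1 library per group there was no replicate check, so shares carry exact Clopper-Pearson intervals at 95% that reflect counting error alone, and no p-value is given. The results describe these libraries and not the conditions.

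A summit lay in 46 SNORD genes in the RPL22 peak list, or 12.9% (9.59 to 16.8%), against 35.1% of all 59679 RefSeq genes on chromosomes 1 to 22, X and Y. In the RPL22L1 peak list it lay in 79, or 22.1% (17.9 to 26.8%), against 36.8% of all genes. Both lists shared 35 SNORD genes (9.80%, all genes 28.9%), 11 were found in the RPL22 peak list only (3.08%, all genes 6.29%) and 44 in the RPL22L1 peak list only (12.3%, all genes 7.94%). The rule used these summits, so nothing is read from the counts themselves. Most genes are far longer than a snoRNA. Among the 6896 other genes of SNORD length, 33 to 237 bases, 7.11% (6.51 to 7.74%) held a summit in the RPL22 peak list and 8.69% (8.03 to 9.38%) in the RPL22L1 peak list. SNORA genes, which encode the box H/ACA class that guides pseudouridylation, held an RPL22 summit in 61 of 182 cases (33.5%, 26.7 to 40.9%) and an RPL22L1 summit in 73 (40.1%, 32.9 to 47.6%).

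Around the annotated snoRNAs, windows of the same length moved by 500 bases to lower coordinates held a summit in 2 cases in the RPL22 peak list and in 5 in the RPL22L1 peak list, and windows moved to higher coordinates in 2 and 6. Of the 357 windows on each side, 12 touched another SNORD gene. Counting a gene when a peak shared any base with it, rather than by the summit, gave 46 and 79 genes again. Of the 90 members, 3 held more than 1 summit in a list. These were SNORD97 with 2 in the RPL22 peak list, and SNORD142 and SNORD15B with 2 each in the RPL22L1 peak list.

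Most members ranked among the highest peaks of their list. In the RPL22 peak list 35 of 46 members lay in the top 1% by score, or 76.1% (61.2 to 87.4%), and in the RPL22L1 peak list 54 of 79, or 68.4% (56.9 to 78.4%). SNORA genes with a summit also ranked high, with 43 of 61 and 55 of 73 in the top 1%, so high rank is not particular to box C/D genes. The median score of the highest peak per member was 5742 in the RPL22 peak list, with a range of 21 to 336368, and 9327 in the RPL22L1 peak list, with a range of 21 to 748674. SNORD summits accounted for 12 of the 100 highest RPL22 peaks and for 21 of the 100 highest RPL22L1 peaks. Over the whole lists they were 47 and 81 peaks, or 0.0305% and 0.0318%. At the other end stood weak peaks, of which 1 in the RPL22 peak list and 11 in the RPL22L1 peak list scored below the median of the list. Flat peaks were the highest peak of 2 members in the RPL22 peak list and of 13 in the RPL22L1 peak list.

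**Figure D1:**
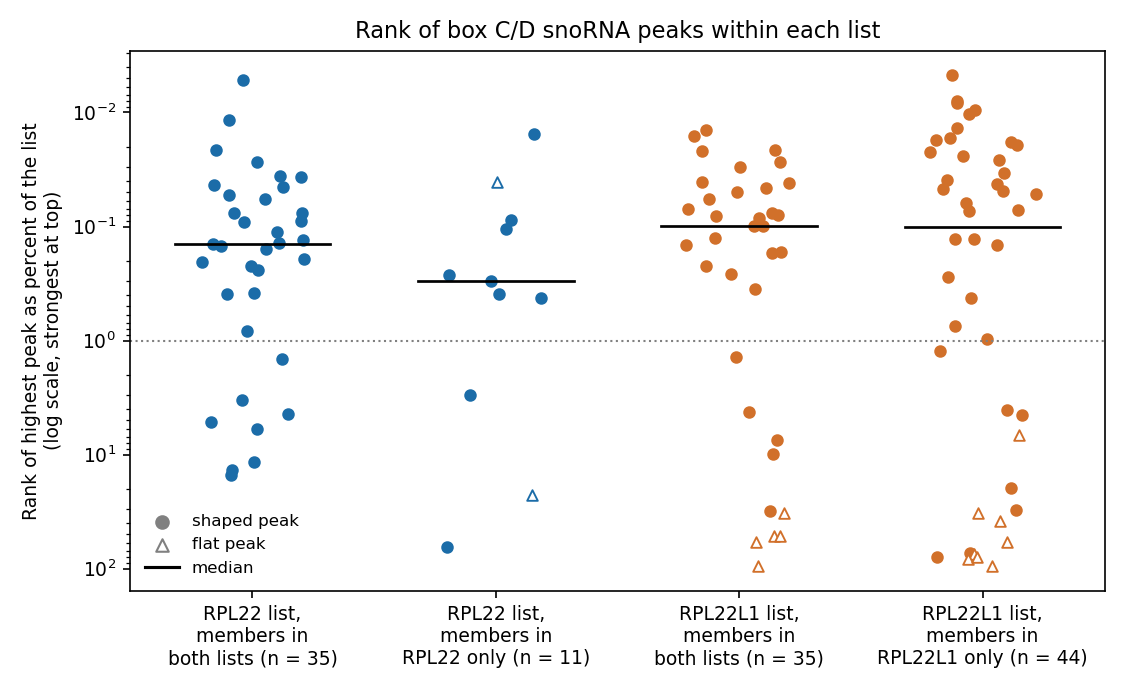
Rank of the highest peak of each box C/D snoRNA gene as a percent of its list (log scale, 1 marking the top 1%), for members found in both lists (n = 35) and in 1 list only (n = 11 and 44), with lines at the medians. Most members lie above the line at 1, and 13 of the RPL22L1 members are flat peaks (open triangles), all of them below it.

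The highest-ranked member of the RPL22 peak list was SNORD27, which guides methylation of 18S rRNA and lies in the host SNHG1 (chromosome 11, 62855012 to 62855083). Its RPL22 peak had a score of 336368 and rank 8, and its RPL22L1 peak a score of 212465 and rank 36. SNORD20, an 18S guide in an intron of NCL, the gene of nucleolin (chromosome 2, 231456444 to 231456523), followed with an RPL22 score of 173395 and rank 18, and an RPL22L1 score of 132250 and rank 54. Next came SNORD83B in RPL3 (chromosome 22, 39313819 to 39313911), with a score of 125237 and rank 24 in the RPL22 peak list and no RPL22L1 summit. Both of the leading members were thus also found in the RPL22L1 peak list, whereas the third was not. SNORD50A in SNHG5, a 28S guide, had an RPL22 score of 95197 (rank 33) and an RPL22L1 score of 28361 (rank 126). SNORD43 in RPL3, an 18S guide, had scores of 75437 (rank 42) and 42860 (rank 106). The others of the first 10 in the RPL22 peak list were SNORD111B in SF3B3 (rank 55), SNORD45C and SNORD45A in RABGGTB (ranks 57 and 67), SNORD65B outside any host (rank 63) and SNORD1B in SNHG16 (rank 70). All but SNORD65B of these also had an RPL22L1 summit.

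The highest-ranked member of the RPL22L1 peak list was SNORD79 in GAS5, a 28S guide (chromosome 1, 173865350 to 173865430), with a score of 748674 and rank 12. SNORD101 in RPS12 (chromosome 6, 132815307 to 132815379) had a score of 484454 and rank 20. SNORD18B in RPL4, a 28S guide (chromosome 15, 66502022 to 66502091), had a score of 465440 and rank 21. None of these members had an RPL22 summit. The same was true of SNORD58C in RPL17 (rank 24), SNORD5 in TAF1D (rank 26), SNORD87 in SNHG6 (rank 35), SNORD143 in THAP9-AS1 (rank 43) and SNORD75 in GAS5 (rank 44). Only SNORD27 (rank 36) and SNORD111B, with a score of 185385 and rank 41, were found in both lists among the first 10 here. SNORD18B has the copies SNORD18A and SNORD18C in the same host, and SNORD111B the copy SNORD111 in SF3B3. The handling of reads that match several copies is not given in the sources used here.

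Among the members of the RPL22 peak list only, SNORD83B (rank 24), SNORD65B (rank 63), SNORD57 in NOP56 (score 12992, rank 135) and SNORD69 in GNL3 (score 10971, rank 161) had the highest scores. The nearest RPL22L1 peaks lay 5137, 5871, 6676 and 1911 bases from these genes. SNORD65B differed from the others in having a flat RPL22 peak despite a score of 42793. Of the 11 members in the RPL22 peak list only, 8 ranked within the first 1000 peaks. Of the 44 in the RPL22L1 peak list only, 15 ranked within the first 100 and 26 within the first 1000. Restricted to peaks in the top 1% of their list, 25 members were found in both lists, 10 in the RPL22 peak list only and 29 in the RPL22L1 peak list only. Of these 10, 8 had no RPL22L1 summit at any score. SNORD23 and SNORD3F had RPL22L1 summits below the top 1%, with scores of 789 and 115. In several members of 1 list the other list had a peak close by but outside the gene, the closest being 71 bases from SNORD65C and 138 bases from SNORD99.

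The rule had no score limit. The lowest-ranked members of the RPL22 peak list were SNORD13E with a score of 21, SNORD154 with 68 and SNORD175 with 87. For the RPL22L1 peak list these were SNORD163 with 21, SNORD128 with 24 and SNORD137 with 49. The peaks of these 3 RPL22L1 members were flat, as was the RPL22 peak of SNORD154. Widening the bounds of all SNORD genes by 10 bases on each side added no gene to either list, so none stood just outside them. Just inside the bounds, the summit nearest to an end was 4 bases from it in the RPL22 peak list, in SNORD50A, and 1 base from it in the RPL22L1 peak list, in SNORD9.

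The 35 members in both lists were chosen for a summit of each list within the same short gene, so overlap of their peaks was largely fixed by the rule and is a description. In all 35 the highest peaks overlapped by at least 1 base. The summits fell on the same base in 18 members, within 2 bases in 23 and within 10 bases in 31. In SNORD27 both summits were at position 24 counted from the lower coordinate, in SNORD20 at position 9 and in SNORD50A at position 5. The largest distances were 50 bases in SNORD3F, whose RPL22L1 peak was flat, and 25 bases in SNORD12C and SNORD3E. SNORA genes found in both lists, 52 in number, had overlapping highest peaks in 50 cases, the same summit base in 17 and summits within 10 bases in 42. RPL22L1 peaks were wider than the RPL22 peaks in 25 of the 35 members and narrower in 7. The widest was the RPL22L1 peak of SNORD97, at 139 bases, over an RPL22 peak of 30 bases.

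Among the 35 shared members alone, which leaves out 8 of the 10 highest RPL22L1 members, the scores had a Spearman correlation of 0.92, given as a description, since these points share their 2 libraries and their host transcripts. Over the 30 with shaped peaks in both lists it was 0.91. SNORD12C, a member of the SNORD12 family hosted by ZFAS1, had a score of 3862 (rank 297) in the RPL22 peak list and of 22559 (rank 145) in the RPL22L1 peak list, with its summits on different bases. SNORD3F had a score of 1212 in the RPL22 peak list and of 115 in the RPL22L1 peak list.

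**Figure D2:**
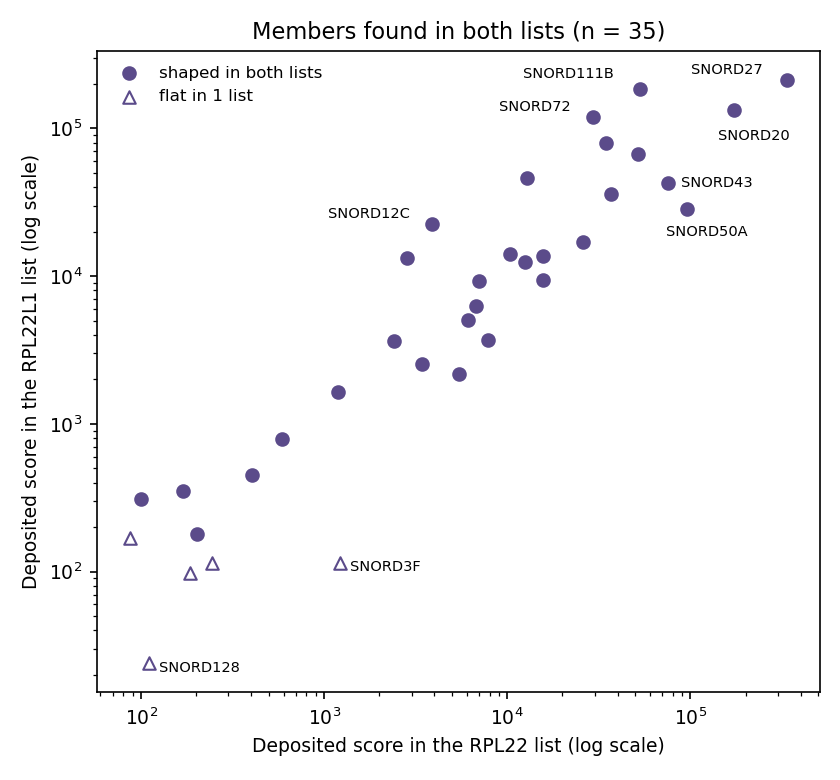
Deposited scores of the highest peak of the 35 box C/D snoRNA genes found in both lists, RPL22 peak list on the x axis and RPL22L1 peak list on the y axis (log scales; scores of separate libraries need not share a scale). Points run from SNORD128 and SNORD3F at the lower edge, where 5 members have a flat RPL22L1 peak (open triangles), to SNORD27 at the upper right.

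Summits lay towards the 3′ end of the snoRNA. Neither the peaks nor the gene table give a strand, so each snoRNA was read in the direction of its host. That direction was known for 64 of the 90 members, and it was assumed that the snoRNA runs with the host. In the RPL22 peak list 32 of 33 such members had their summit past the midpoint towards the 3′ end, or 97.0% (84.2 to 99.9%). In the RPL22L1 peak list it was 52 of 55, or 94.5% (84.9 to 98.9%). The same held in both directions of the genome, with 15 of 15 RPL22 members on hosts of the plus strand and 17 of 18 on the minus strand, and with 21 of 23 and 31 of 32 RPL22L1 members. Without regard to the host, 23 of 46 and 45 of 79 summits lay in the part of the gene with the lower coordinates. Position within the gene stems from the same summits as the rule and is therefore a description.

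**Figure D3:**
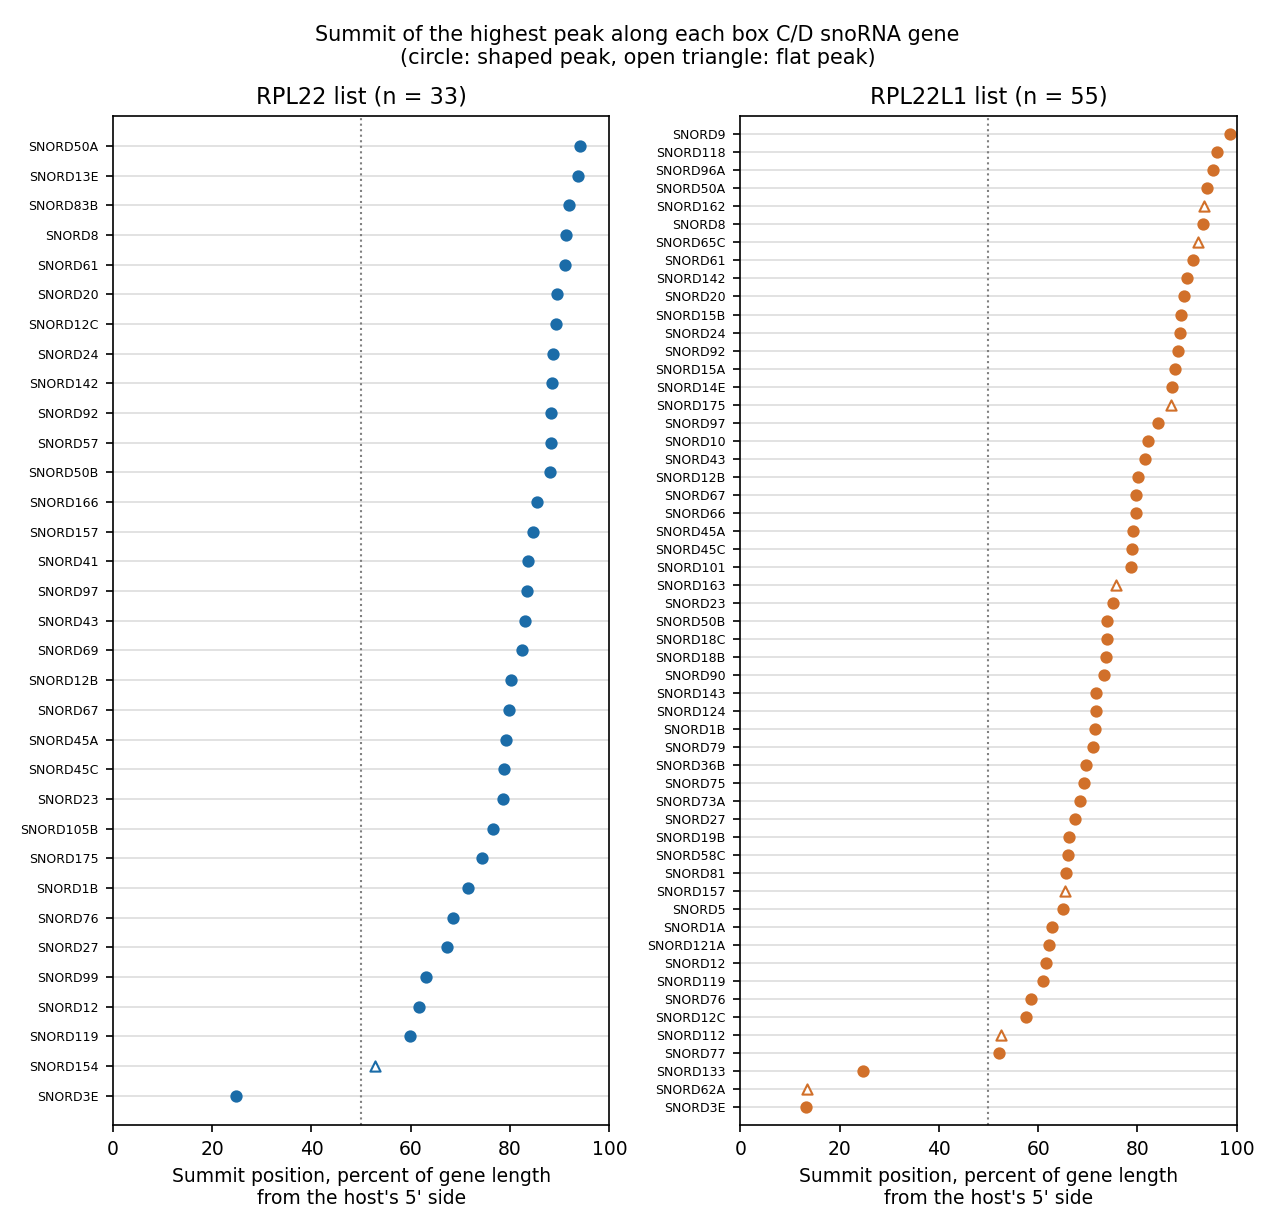
Position of the summit of the highest peak along each box C/D snoRNA gene whose host strand is known, as a percent of gene length from the host's 5′ side (33 members in the RPL22 peak list, 55 in the RPL22L1 peak list). The dotted line marks the midpoint, and 32 and 52 summits lie to the right of it.

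The median distance from the summit to the 3′ end was 16 bases in the RPL22 peak list and 20 in the RPL22L1 peak list. In the RPL22 peak list 13 summits were within 10 bases of that end, 7 at 11 to 20 bases, 10 at 21 to 30 and 3 further away. In the RPL22L1 peak list these numbers were 13, 15, 16 and 11. The 24 shared members with a known host strand had median distances of 17.5 and 19.5 bases, the 9 of the RPL22 peak list only had one of 13, and the 31 of the RPL22L1 peak list only one of 21. SNORD50A was among those near the end, with the summit 4 bases from it in both lists, and SNORD20 had it at 8 bases. In SNORD27 it lay at 23 bases and in SNORD79 also at 23. Peaks ran past the 3′ end in 18 of 33 RPL22 members and in 26 of 55 RPL22L1 members, by at most 11 bases. Past the 5′ end they ran in 0 and 2.

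Read in the assumed direction of the host, which may not be that of every snoRNA, the members with the summit nearer the 5′ end were few. SNORD3E, a copy of U3 in TEX11, had it at base 54 of 215 in the RPL22 peak list (score 402) and at base 29 in the RPL22L1 peak list (score 450). SNORD133 in LARP4 had it at base 54 of 216 in the RPL22L1 peak list with a score of 29108. SNORD62A in PRRC2B had it at base 12 of 86, in a flat peak with a score of 60. SNORA genes showed the same side, with 37 of 42 summits past the midpoint in the RPL22 peak list, or 88.1% (74.4 to 96.0%), and 51 of 56 in the RPL22L1 peak list, or 91.1% (80.4 to 97.0%). The intervals of both classes overlapped, so a preference particular to box C/D genes is not shown.

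Guides of ribosomal RNA methylation, listed by their textbook targets in lists that may be incomplete, were found in both peak lists. Of 56 guides of 28S rRNA, the RNA of the large subunit, 12 had a summit in the RPL22 peak list, or 21.4% (11.6 to 34.4%), and 22 in the RPL22L1 peak list, or 39.3% (26.5 to 53.3%). Of 35 guides of 18S rRNA, the RNA of the small subunit, 9 had one in the RPL22 peak list, or 25.7% (12.5 to 43.3%), and 10 in the RPL22L1 peak list, or 28.6% (14.6 to 46.3%). Members of the RPL22L1 peak list only made up 13 of the 28S guides, or 23.2% (12.98 to 36.4%), and 2 of the 18S guides, or 5.71% (0.700 to 19.2%), beside 12.3% of all SNORD genes and 7.94% of all genes. The 12.3% is lowered by the 123 imprinted copies, of which 3 had a summit. No listed guide is among those copies, so it is not a like base for the guides. Of the SNORD genes other than those copies, 19.7% had a summit in the RPL22 peak list and 32.5% in the RPL22L1 peak list. Both values lie within the intervals of the 28S and 18S guides for the same list, so no excess of guides is read from the per-list shares. Of all genes, 35.1% and 36.8% held a summit, and the 35.1% lies above the interval of the 28S guides in the RPL22 peak list. Outside GAS5, 10 of 49 guides of 28S rRNA were in the RPL22L1 peak list only. The intervals of the 28S and 18S shares overlap, and the difference was not tested. It also depends on the guide lists, which were chosen with earlier results of these data known and may leave out guides. SNORD11 stands among the 18S guides and SNORD58A among the 28S guides, but SNORD11B and SNORD58C are not listed. Both were found in the RPL22L1 peak list only, so the counts of 13 and 2 could change with the lists. Copies in 1 host count separately, such as SNORD15A and SNORD15B in RPS3 and SNORD18B and SNORD18C in RPL4. By the highest peak per gene, 12 of 12 RPL22 and 21 of 22 RPL22L1 members among the 28S guides lay in the top 1% of their list, as did 9 of 9 and 9 of 10 among the 18S guides.

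Of the 5 listed guides of U6 snRNA methylation, 3 had a summit in either list, beside 25.2% of all SNORD genes and 43.1% of all genes. This guide list may also be incomplete. In the RPL22 peak list it was 2 (40%, 5.27 to 85.3%) and in the RPL22L1 peak list 3 (60%, 14.7 to 94.7%). The shares over all SNORD genes, 12.9% and 22.1%, lie within these wide intervals. SNORD8 in CHD8 had a score of 2420 (rank 373) in the RPL22 peak list and of 3616 (rank 438) in the RPL22L1 peak list, and its summits were 2 bases apart. SNORD67 in CKAP5 had low scores of 202 and 180 with the summit on the same base. SNORD9, which shares the host CHD8 with SNORD8, had an RPL22L1 score of 2029 (rank 709) and no RPL22 summit.

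Of the 13 listed snoRNAs of pre-rRNA processing, 1 had an RPL22 summit (7.69%, 0.195 to 36.0%), beside 12.9% of all SNORD genes. An RPL22L1 summit lay in 4 (30.8%, 9.09 to 61.4%), beside 22.1% of all SNORD genes, a share within that interval. The U8 gene SNORD118 (chromosome 17, 8173452 to 8173588), which acts in the maturation of large-subunit rRNA, had an RPL22L1 score of 4999 (rank 369). SNORD14E, a U14 copy in HSPA8, had one of 102898 (rank 61). Neither had an RPL22 summit. Among the U3 copies in that list, SNORD3D had a score of 169 in the RPL22 peak list and of 349 in the RPL22L1 peak list, and SNORD3C had 72 in the RPL22L1 peak list only. SNORD3A, SNORD3B-1, SNORD3B-2, SNORD13, SNORD22 and the U14 copies SNORD14A to SNORD14D had no summit in either list. U3 copies may share reads. They differ in length, with 217 bases in SNORD3D, 130 in SNORD3P3 and 92 in SNORD3I, and their sequences were not compared. Over all 13 annotated ones, 4 had a summit in the RPL22 peak list and 7 in the RPL22L1 peak list, the highest being SNORD3P3 with scores of 3436 and 2556 and the summit on the same base.

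The imprinted clusters held almost no summits. The 82 copies of the chromosome 15 cluster, which is active mainly in neurons and includes the SNORD115 and SNORD116 arrays, had 0 in either list. Of the 41 copies of the chromosome 14 cluster, SNORD112, SNORD113-5 and SNORD113-8 had an RPL22L1 summit, each in a flat peak, with scores of 65, 150 and 168. Outside both clusters, a summit lay in 46 of 234 SNORD genes in the RPL22 peak list, or 19.7% (14.8 to 25.3%), and in 76, or 32.5% (26.5 to 38.9%), in the RPL22L1 peak list. A gene that is not transcribed and one that is transcribed but not bound cannot be told apart in peaks.

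**Figure D4:**
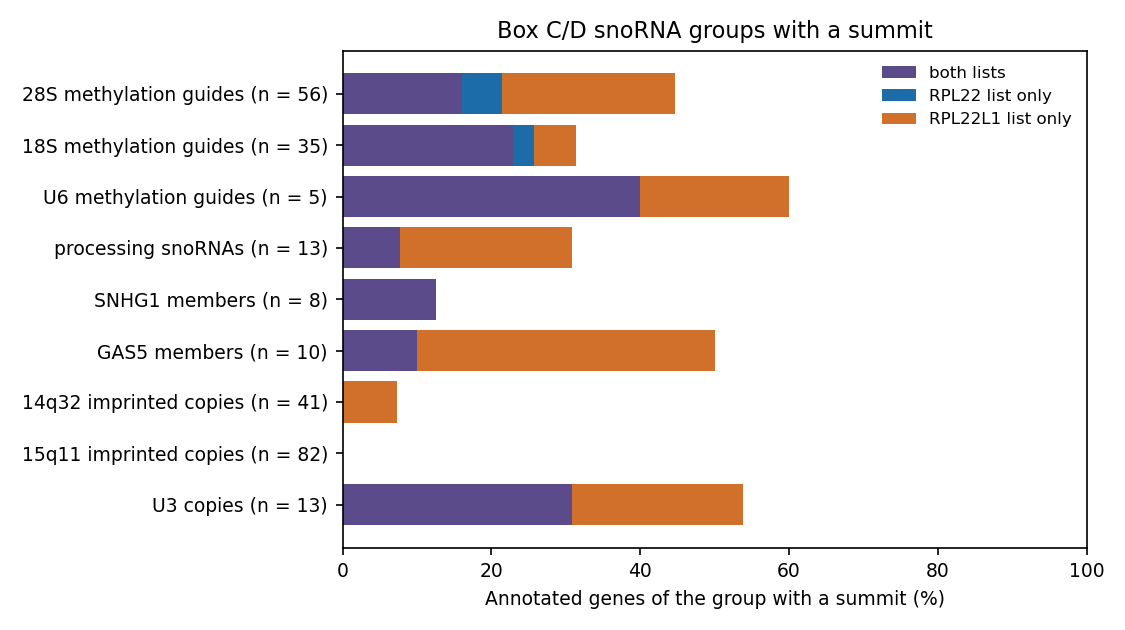
Share of the annotated genes of each box C/D snoRNA group that had a summit in both lists, in the RPL22 peak list only or in the RPL22L1 peak list only (percent, n = annotated genes; some genes stand in more than 1 group). The part in the RPL22L1 peak list only is 23.2% for 28S guides and 5.71% for 18S guides, and the chromosome 15 cluster has no bar. Over all SNORD genes it is 12.3%, a base that includes the imprinted copies, whereas the guide lists hold none of them. The guide lists were chosen with earlier results of these data known and may leave out guides.

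Hosts were identified as the shortest protein-coding or long non-coding RNA gene around the snoRNA, and 82 of the 90 members had one. Members lay in 63 hosts. In ribosomal protein genes, 6 of 43 SNORD genes had a summit in the RPL22 peak list, or 13.95% (5.30 to 27.9%), and 14 in the RPL22L1 peak list, or 32.6% (19.1 to 48.5%). For long non-coding snoRNA hosts other than SNHG14, which holds most of the chromosome 15 cluster, it was 9 of 38, or 23.7% (11.4 to 40.2%), and 14, or 36.8% (21.8 to 54.0%). In other protein-coding hosts it was 25 of 124 (20.2%, 13.5 to 28.3%) and 39 (31.5%, 23.4 to 40.4%). Other long non-coding hosts had lower shares, with 1 of 53 (1.89%, 0.0478 to 10.1%) and 5 (9.43%, 3.14 to 20.7%). Of these 53 genes, 40 lay in MEG8 in the chromosome 14 cluster, where 0 and 2 were found. The lower shares thus largely restate that cluster and are not read as a trait of this kind of host. Of the 22 SNORD genes without a host, 5 (22.7%, 7.82 to 45.4%) and 7 (31.8%, 13.9 to 54.9%) held a summit. Beside these stand 12.9% and 22.1% of all SNORD genes, 19.7% and 32.5% of those outside the imprinted clusters, and 35.1% and 36.8% of all genes. The shares outside the clusters lie within the intervals of each kind except other long non-coding hosts. No difference between those kinds is therefore read from the shares. By its highest peak, each member in ribosomal protein hosts and in long non-coding snoRNA hosts lay in the top 1% of the list. In other protein-coding hosts it was 16 of 25 and 23 of 39 members. In other long non-coding hosts it was 0 of 1 and 1 of 5, and without a host 4 of 5 and 2 of 7.

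The snoRNA held the highest peak of most hosts of members. These hosts were taken for a summit in a SNORD gene, so the counts were partly fixed by the rule and are a description. This was so in 29 of 35 hosts with a member in the RPL22 peak list and in 43 of 55 in the RPL22L1 peak list. Among hosts that are ribosomal protein genes it was 5 of 5 and 11 of 11, of which 3 and 7 had no summit outside annotated snoRNAs. The highest peak was outside SNORD genes mainly in other protein-coding hosts, where it lay in them in 18 of 23 and 23 of 34. No summit outside annotated snoRNAs was found in 14 and 18 hosts. GAS5, SNHG1, SNHG5, RPL3 and RPL7A were among these in both lists, so that every summit within their bounds lay in a snoRNA.

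Members of 1 host differed from each other. GAS5, a long non-coding RNA that accumulates in growth-arrested cells, carries 10 SNORD genes. SNORD76 was found in both lists, with a score of 12787 (rank 138) in the RPL22 peak list and of 46151 (rank 103) in the RPL22L1 peak list, and summits 8 bases apart. SNORD79, SNORD75, SNORD81 and SNORD77 were found in the RPL22L1 peak list only, with scores of 748674, 177549, 167646 and 16228. SNORD44, SNORD47, SNORD74, SNORD78 and SNORD80 had no summit. SNHG1 carries 8, and SNORD27 alone had a summit, in both lists, while SNORD22, SNORD25, SNORD26 and SNORD28 to SNORD31 had none. In ZFAS1, SNORD12, SNORD12B and SNORD12C were found in both lists, and in SNHG5 so were SNORD50A and SNORD50B. RPL3 held SNORD43 in both lists, SNORD83B in the RPL22 peak list only, and none in SNORD83A and SNORD139. RPL13A, with SNORD32A, SNORD33, SNORD34 and SNORD35A, had none in either list. Of 43 hosts with at least 2 SNORD genes, 31 had a summit in any of them and 5 in all of them.

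**Figure D5:**
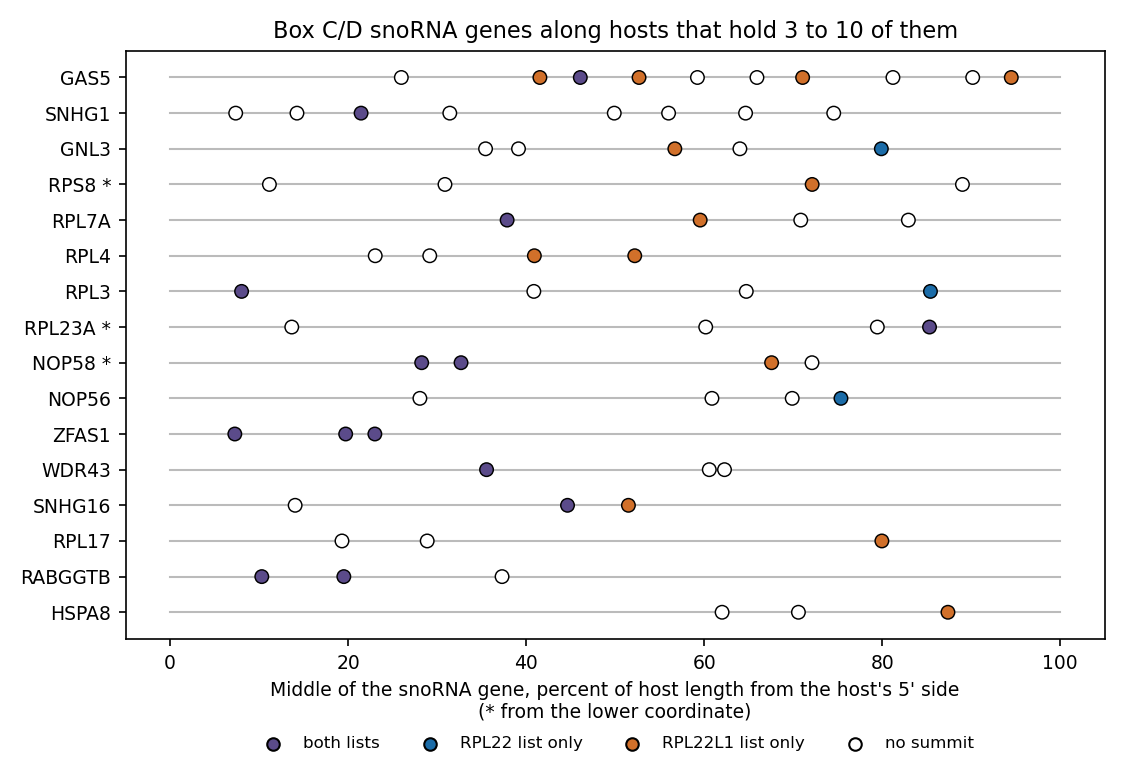
Box C/D snoRNA genes along the hosts that hold 3 to 10 of them and have at least 1 member, by position in percent of host length from the host's 5′ side (asterisk, from the lower coordinate). Filled circles mark genes with a summit in both lists or in 1 list and open circles genes without; GAS5 has 5 filled of 10, SNHG1 1 of 8 and ZFAS1 3 of 3.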

How the data were processed

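Per the submitters' processing notes, cutadapt 4.8, STAR 2.7.10a, UMI-tools 1.1.5, MACS3 3.0.0a6 and the build hg38 were used, and parameters and the control are not given in the sources used here. The deposited lists, 1 per library, have 10 columns and no header, and the deposited score per peak is the authors' value. Columns 7 to 9 are 0 throughout.

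The summit was taken as column 2 plus column 10 plus 1. Gene bounds came from the RefSeq table of GRCh38.p14, and host strand from the RefSeq promoter table of that build, which held 49 of the 63 hosts. Ranks run over all peaks of a list. No snoRNA sequence was used here. The members, gene lists and settings were chosen with earlier results of these data known. Named were the 10 highest members of each list, the 5 highest of 1 list only (1 of them is not reported here), the 3 lowest, and members of the processing, SNHG1 and GAS5 lists; other names were chosen after their values were seen. Alternatives changed the hit rule, peaks kept, overlap and host. Tables were made in Python 3.11.15 with pandas 2.3.3 and numpy 2.4.6, intervals with scipy 1.17.1, and plots with matplotlib 3.10.9. The gene assignment was tested on simulated peaks over the 357 SNORD genes, where 60 of 60 planted genes were found and 0 others. The other simulated peaks were placed away from every SNORD gene, so the 0 was fixed by that setting. Peaks close beside a gene were not tested.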

Additional observations from a re-analysis of the deposited data

How the results depend on the processing

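Of 134 alternative values, 127 stayed within 1.5-fold or within their interval, 7 moved and 0 reversed. Restricting peaks to the top 1% of their list, chosen after seeing the data as was the strand of the longest host, gave 29 members in the RPL22L1 peak list only, against 44. Overlap of at least 50% of both peaks held in 77.1% of shared members and summits at most 10 bases apart in 88.6%, against 100%, both stricter by construction. Lists of equal size gave 70 RPL22L1 members and 33 in both. The 18S guides in the RPL22L1 peak list only went from 2 to 1 under 4 settings. No paired analysis was possible because each group has 1 library. The number of reads is unknown, so a missing summit may reflect depth or the score limit.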
